A study of Homo sapiens with 9 samples.

Results

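Regions of open chromatin that appeared in the peak list of IGF2BP3 knockout cells and in none of 3 other lists were examined in HEK293T, an established human embryonic kidney cell line. Peaks of the 4 deposited lists were pooled, those sharing at least 1 bp were merged into regions, and a region was kept when it overlapped an IGF2BP3 knockout peak and no peak of the control, the IGF2BP1 knockout or the IGF2BP2 knockout. This gave 3506 members of 71597 regions (4.90%), and each member consisted of 1 IGF2BP3 knockout peak. Members were thus chosen by the called peak positions themselves, so their number and their absence from the other lists are the starting point and not a finding. By the same rule, 6.03% of regions belonged to the IGF2BP1 knockout alone, 15.2% to the IGF2BP2 knockout alone and 1.98% to the control alone.

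The assay was ATAC-seq with an Omni-ATAC buffer, where Tn5 transposase inserts adapters for sequencing into open DNA. The control cells carried a CRISPR/Cas9 non-targeting guide and were otherwise wild type, and no group received a further treatment. Each knockout (IGF2BP1, IGF2BP2 or IGF2BP3) was made by transient transfection with plasmids carrying 3 guide RNAs against the gene together with GFP, and was represented by 1 clone grown from a sorted cell, and the genotype therefore cannot be told apart from the clone. The IGF2BP3 knockout, the IGF2BP2 knockout and the control had 2 libraries each, from batches 2 and 3, and the IGF2BP1 knockout had 3, from batches 1, 2 and 3.

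Only 1 list per group was deposited, with the chromosome, start and end of each peak and no height or score. No spread between replicates could therefore be measured and no test between groups was made. Shares below carry Wilson 95% intervals, which cover counting error over regions and nothing else. The read depth behind the lists is unknown. The IGF2BP3 knockout list held 44041 peaks covering 35.64 Mb, and the other lists held 39194 to 60262. In a bulk list, a site open in some of the cells and a site weakly open in all of them cannot be told apart. Of 6 housekeeping genes, all had a peak within 1 kb of a gene end in every list. Of 10 genes listed as markers of HEK293T, 8 had one in the control list and 6 in the IGF2BP3 knockout list. HOXA9 and IGF2BP3 were without one there, and PAX2 and LIN28B lacked one in all 4 lists. Among blood markers, PTPRC, MPO, CD33 and LYZ lacked one in all 4 lists, whereas SPI1 and CD34 had one in each list.

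IGF2BP3 belongs to a family of oncofetal RNA-binding proteins that bind mRNAs in the cytoplasm, many of them carrying N6-methyladenosine, and affect their stability and translation. IGF2BP1 and IGF2BP3 are abundant in the embryo, low in most adult tissues and present again in many tumours and in HEK293T. Open chromatin falls into promoters, many of which lie in CpG islands and are open in most cell types, and distal elements such as enhancers, which differ more between cell types and states.

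The sequences that the members open can be shown for promoters listed by RefSeq (GRCh38.p14, 250 bases before to 50 bases after a gene start). The first 3 below are the widest members that cover a whole listed promoter of a protein-coding gene, and capitals mark matches to the motifs searched. RIMBP2 (minus strand, chr12:130715524-130715823) encodes a protein of the presynaptic active zone. CD44 (plus strand, chr11:35138921-35139220) encodes a hyaluronan receptor of the cell surface. GALC (minus strand, chr14:87993133-87993432) encodes a lysosomal enzyme that degrades galactosylceramide. The capitals in RIMBP2 and CD44 are GC boxes (GGGCGGG on either strand), the element bound by SP and KLF factors, and those in GALC are a SOX motif (ACAATGG).
RIMBP2: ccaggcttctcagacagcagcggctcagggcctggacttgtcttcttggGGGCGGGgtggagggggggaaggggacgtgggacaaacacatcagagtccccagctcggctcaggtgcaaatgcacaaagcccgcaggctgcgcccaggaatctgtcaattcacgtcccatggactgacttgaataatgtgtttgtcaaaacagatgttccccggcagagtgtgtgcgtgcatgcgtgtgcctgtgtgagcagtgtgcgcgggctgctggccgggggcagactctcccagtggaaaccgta
CD44: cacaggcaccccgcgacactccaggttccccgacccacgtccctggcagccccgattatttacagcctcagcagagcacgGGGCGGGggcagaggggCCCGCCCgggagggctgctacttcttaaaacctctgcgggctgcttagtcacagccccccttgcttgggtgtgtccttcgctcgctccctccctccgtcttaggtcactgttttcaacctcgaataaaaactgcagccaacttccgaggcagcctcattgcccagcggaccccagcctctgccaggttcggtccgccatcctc
GALC: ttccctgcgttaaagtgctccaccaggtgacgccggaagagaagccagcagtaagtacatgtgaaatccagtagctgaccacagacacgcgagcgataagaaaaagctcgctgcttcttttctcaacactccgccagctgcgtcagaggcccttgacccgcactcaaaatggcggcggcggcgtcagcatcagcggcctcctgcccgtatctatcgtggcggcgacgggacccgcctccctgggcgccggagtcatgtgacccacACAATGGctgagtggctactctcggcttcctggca

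Members also overlapped 2 of 1562 microRNA genes in the RefSeq table, MIR128-2 and MIR3141. MIR128-2 lies at chr3:35744476-35744559 on the plus strand and gives rise to miR-128, a microRNA abundant in brain. The member there, chr3:35744472-35744773, was 302 bp wide. Its mature products are shown with the seed (bases 2 to 8) in capitals. MIR3141 was overlapped by a member of 576 bp at chr5:154595722-154596297. Regions in the IGF2BP1 knockout list only overlapped 2 microRNA genes, those in the IGF2BP2 knockout list only 5, those in the control list only 0, and those in all 4 lists 122.
hsa-miR-128-2-5p: gGGGGCCGauacacuguacgaga
hsa-miR-128-3p: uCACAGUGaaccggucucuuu
hsa-miR-3141: gAGGGCGGguggaggagga

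The members were narrow. Their median width was 485 bp, with quartiles of 383 and 629 bp and a range of 221 to 2125 bp, against a median of 740 bp in the other 40535 peaks of the same list. In the ranking of all IGF2BP3 knockout peaks by width, the median member stood at percentile 20.5. Members made up 21.2% of the list's peaks under 400 bp (interval 20.1 to 22.4) and 0.901% of those of 1000 bp or more, so 104 members reached 1000 bp. The other regions held by 1 list alone were of similar or greater width, with medians of 467 bp for the IGF2BP2 knockout, 454 bp for the control and 602 bp for the IGF2BP1 knockout, and regions in all 4 lists had a median of 1081 bp. Width and membership come from the same list, and these values describe the members without testing them.

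Few members lay beside a peak of another list, as in the other classes held by 1 list alone. By the rule no member shares a base with such a peak, so only the size of the gap is described. A gap of at least 1 kb separated 3291 members (93.9%) from any peak of the other lists. This share was 95.5% for the IGF2BP1 knockout alone, 96.0% for the IGF2BP2 knockout alone and 90.5% for the control alone. A gap of at least 10 kb separated 1983 members (56.6%, interval 54.9 to 58.2), and a gap of at least 100 kb separated 165 (4.71%). The share at least 10 kb away for the IGF2BP1 knockout alone was 2588 of 4314, and it was 62.8% for the IGF2BP2 knockout alone and 42.9% for the control alone, so the members' share lay under those of the other knockouts and above that of the control. The median gap of members was 12.4 kb. Control peaks were the farthest, at a median of 25.9 kb, followed by those of the IGF2BP1 knockout at 17.7 kb and the IGF2BP2 knockout at 14.6 kb. This order is the inverse of list length, at 39194, 50917 and 60262 peaks. Whether the distances depend on more than list length was not tested. The control list had a peak within 10 kb of 907 members (25.9%).

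**Figure D1:**
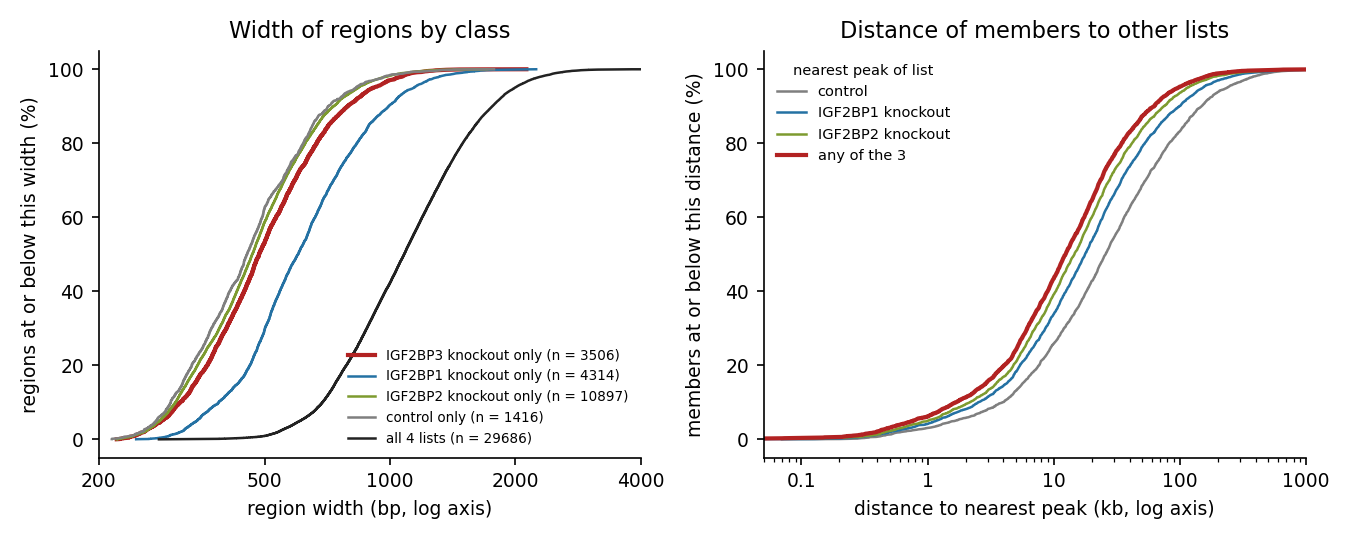
Left, cumulative share of regions (%) against region width (bp, log axis) for the members, the other 3 classes held by 1 list alone and the regions in all 4 lists. Right, cumulative share of members (%) against the distance to the nearest peak of each other list, and of any of the 3 (kb, log axis). Members follow the other narrow classes at a median of 485 bp, far from the curve of regions in all 4 lists (1081 bp). Peaks of the control, the shortest list, are the farthest from the members (median 25.9 kb).

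At the threshold of the rule, the closest member was chr1:51643564-51644361 within OSBPL9, 798 bp wide and 0.00100 kb from an IGF2BP2 knockout peak. It was followed by members in IRAG1 and CHRNA7, at 0.00700 and 0.00800 kb, and by members 44.5 kb from PRSS12 and 72.5 kb from CNEP1R1, at 0.0150 and 0.0240 kb. Just outside the rule, the IGF2BP3 knockout peak chr3:53643383-53643715 shared 5 bp with an IGF2BP2 knockout peak, and the next 4 shared 30, 63, 75 and 83 bp with one. In all, 215 members (6.13%) lay under 1 kb from a peak of another list.

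Most members were far from the ends of genes. Of 3482 members on assembled chromosomes, 172 (4.94%, interval 4.27 to 5.71) lay within 1 kb of an end of a protein-coding gene. The gene table used gives both ends of a gene without its strand, so a gene end can be a start or a 3′ end, and whether a member was exonic or intronic was not determined. The share was 30.5% in the other peaks of the IGF2BP3 knockout list and 39.0% in regions of all 4 lists. It was 4.13% in the IGF2BP1 knockout alone, 3.14% in the IGF2BP2 knockout alone and 7.26% in the control alone. The share of members at a gene end was 4.62% below 400 bp, and among the 104 members of 1000 bp or more it was 10.6% (interval 6.01 to 18.0).

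Protein-coding gene bodies held 1476 members (42.4%, interval 40.8 to 44.0), lncRNA genes outside protein-coding genes held 457 (13.1%), and 1488 (42.7%) lay in no annotated gene. For the control alone, 56.0% lay in a protein-coding gene, for the IGF2BP1 knockout alone 51.2%, and for the IGF2BP2 knockout alone 42.4%. More than 100 kb separated 916 members (26.3%, interval 24.9 to 27.8) from any protein-coding gene, against 12.5% in the control alone, 18.0% in the IGF2BP1 knockout alone, 29.1% in the IGF2BP2 knockout alone and 9.06% in all 4 lists. The median member had 5 protein-coding genes within 500 kb on either side, against 5 for the IGF2BP1 knockout alone, 4 for the IGF2BP2 knockout alone, 8 for the control alone and 9 for all 4 lists. The members thus lay further from genes than the regions of the control alone in these measures, and in the share over 100 kb away they stood between those of the IGF2BP1 and IGF2BP2 knockouts alone. Another 24 members (0.685%) were on unplaced or unlocalized sequences and are counted without being named.

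**Figure D2:**
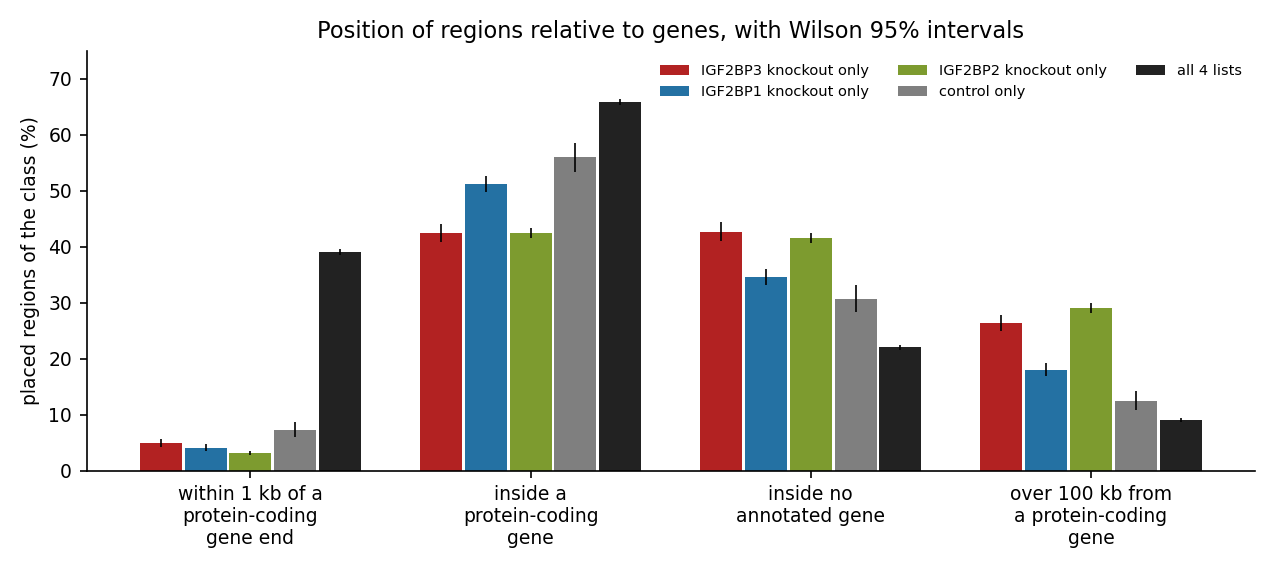
Share of placed regions (%) in 4 positions relative to genes, for the members, the other classes held by 1 list alone and the regions in all 4 lists. Bars give the share and lines its Wilson 95% interval. Members lie at a gene end in 4.94% of cases, against 39.0% for regions in all 4 lists, and over 100 kb from a protein-coding gene in 26.3%, against 9.06%.

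The 10 widest members at least 1 kb from other lists' peaks give the clearest individual sites. The widest of all members, chr12:130714771-130716895, covered the start of RIMBP2 shown above. It was 2125 bp wide, at width percentile 99.2 of its list, and 31.0 kb from the nearest control peak. A further member of 807 bp, chr12:130633440-130634246, lay inside RIMBP2, 114 kb from any other list's peak, and the other 3 lists held 0 peaks in the gene or within 1 kb of it. The next member in width, chr10:43707493-43709132 (1640 bp), lay outside genes, 58.6 kb from ZNF32. A member of 1464 bp, chr10:1616476-1617939, was in ADARB2, which encodes a brain-enriched member of the adenosine deaminase family without known editing activity. It was 97.8 kb from the nearest peak of another list.

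The other members of this set were 1278 to 1395 bp wide. They lay in CLMP (chr11:123082374-123083768), which encodes an adhesion molecule of epithelial junctions, and in DNAJC13 (chr3:132470526-132471916), which encodes an endosomal co-chaperone. PTCHD1, a patched-domain gene linked to neurodevelopment, held one of 1367 bp at a gene end (chrX:23333043-23334409). LCOR, a corepressor of nuclear receptors, held chr10:96941079-96942398, and KLHL1, a Kelch-family gene, held chr13:69923867-69925168. The lncRNA gene DIRC3 held chr2:217365900-217367188, and CACNA2D1, an auxiliary subunit of calcium channels, held chr7:82284784-82286061. Their distances to the nearest peak of another list ran from 9.71 kb at KLHL1 to 52.1 kb at DNAJC13.

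Gene ends with a member belonged to 183 of 20037 protein-coding genes (0.913%). At 79 of these genes another list also had a peak at one of the ends, and at 104 no other list had one. The 10 widest such members were 1069 to 2125 bp wide. Besides RIMBP2 and PTCHD1, they lay at CD44, GALC, NPY, LRFN5, FOXA2 and DCHS1, at RTL4 and TRPC5, which share 1 member, and at EEF1D and TIGD5, which share another. The members at LRFN5 and at EEF1D and TIGD5 lay 0.562 and 0.200 kb from a peak of another list.

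At CD44, whose mRNA is a known target of IGF2BP proteins, the member chr11:35138836-35139994 (1159 bp, width percentile 82.5) covered the start. It was the only peak of any list in the gene or within 1 kb of it, and the nearest peak of the control lay 55.9 kb away, of the IGF2BP1 knockout 55.7 kb and of the IGF2BP2 knockout 55.9 kb. GALC showed the same arrangement, with 1 member of 1069 bp at its start (chr14:87992441-87993509), 0 peaks in the other 3 lists, and the nearest peaks 20.2 kb away in the IGF2BP1 and IGF2BP2 knockouts and 175 kb away in the control. At NPY, which encodes the peptide transmitter neuropeptide Y, the member chr7:24284171-24285292 (1122 bp) held the start. Each of the other lists had 1 peak within the gene or 1 kb of it, against 2, the member included, in the IGF2BP3 knockout list. These peaks of the other lists lay 4.89 to 4.90 kb from the member. FOXA2, a forkhead pioneer factor of endoderm, had a member of 1213 bp (chr20:22584133-22585345) and no peak of another list in the gene or 1 kb of it, and the nearest control peak was 1.24 kb from the member. DCHS1, an atypical cadherin, had a member of 1111 bp (chr11:6654880-6655990), 26.8 kb from the control.

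Counted over whole genes with 1 kb on either side, 101 protein-coding genes (0.504%, interval 0.415 to 0.612) had peaks in the IGF2BP3 knockout list and in no other list. For the IGF2BP1 knockout this number was 129, for the IGF2BP2 knockout 251 and for the control 49. The order of the 4 numbers followed that of the regions held by each list alone (4314, 10897, 1416 and 3506). Of the 101 genes, 98 held 1 member and 3 held 2, namely RIMBP2, KRTAP10-2 and the readthrough gene GIMAP1-GIMAP5, which shares a member with GIMAP5.

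Members overlapped 51 of 15842 listed promoters of protein-coding genes and 49 promoters of lncRNA genes. The table lacks a promoter for some genes, chromosome 8 included, and covers 79.1% of protein-coding genes. The genes with such a member included several of neurotransmission, named here after their values were seen and without a test. None of 36 listed genes of the neuronal cytoskeleton and lineage had a member at an end or in the body. SLC32A1, the vesicular GABA transporter, had a member of 879 bp at chr20:38724381-38725259. Its start was covered, and the other 3 lists had 0 peaks in the gene. The vesicular glutamate transporters SLC17A7 and SLC17A8 had narrow members of 356 and 260 bp, the latter at width percentile 0.505. The member at SLC17A7 lay 0.961 kb from an IGF2BP1 knockout peak, and at SLC17A8 each other list held 1 peak. KCNA6, a voltage-gated potassium channel, had a member of 1029 bp, 45.4 kb from any other list's peak. The vasopressin gene AVP had one of 411 bp, and the somatostatin receptor gene SSTR3 one of 456 bp. The other lists held 0 peaks at KCNA6, AVP and SSTR3. NRXN3 and PCDH11X, genes of neuronal adhesion, had members of 725 and 971 bp at a start. In or within 1 kb of NRXN3 the control, IGF2BP1 knockout and IGF2BP2 knockout lists held 9, 14 and 13 peaks. For PCDH11X these numbers were 0, 1 and 2. GIMAP2 and GIMAP5, GTPases of the lymphoid lineage, had members of 731 and 653 bp, and the GIMAP2 gene also held 1 peak of the IGF2BP1 knockout.

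The promoters that members overlapped were less CpG-rich than those open in all 4 lists. The observed over expected ratio of CpG had a median of 0.60 in the 51 protein-coding promoters with a member, 0.856 in 9875 promoters overlapping regions of all 4 lists, 0.763 in all 15842, and 0.282 in 5207 without any region. A ratio of at least 0.6 was found in 26 of the 51 (51.0%, interval 37.7 to 64.1), against 90.4% in the promoters of all 4 lists and 20.3% in those without a region. For promoters overlapping regions of the IGF2BP1 knockout alone it was 51.9%, of the IGF2BP2 knockout alone 23.5%, and of the control alone 62.1%. The G and C content of the member promoters had a median of 64.3%, near the 66.3% of promoters open in all 4 lists. Of the 3 promoters printed, GALC had a CpG ratio of 0.894, CD44 0.626 and RIMBP2 0.524.

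Motifs were searched in these promoters on both strands, and a match describes letters only. The GC box GGGCGGG was present in 24 of 51 member promoters (47.1%, interval 34.1 to 60.5), in 44.4% of all 15842 promoters and in 57.6% of those open in all 4 lists. The CCAAT box (CCAAT) was present in 15 (29.4%), against 36.4% and 37.3%. The ETS motif CCGGAAGT matched 1 of the 51 (1.96%, interval 0.347 to 10.3), against 6.19% and 9.35%. The TEAD motif GGAATG matched 7 (13.7%), against 11.7% and 9.76%, and the AP-1 motif TGANTCA matched 3 (5.88%), against 5.75% and 3.46%. The repeat of GAAA bound by interferon regulatory factors matched 3 (5.88%, interval 2.02 to 15.9), against 3.18% and 2.30%, at FAM111A, GIMAP2 and HMSD. For each of the motifs given so far, the share in all protein-coding promoters lay within the interval of the member promoters. Further motifs (CTCF core, E-box CACGTG and SOX) each matched 1 to 4 of the 51, and those for NRF1, POU octamer, GATA, NF-kappaB, RUNX, NFI and HOX matched 0. The letters AGATAA, searched for GATA factors, were in 7.57% of all protein-coding promoters, above the upper limit of the interval for 0 of 51.

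Innate immunity is the pathway that the study's title names. Across all protein-coding genes, 1211 of 20037 (6.04%) had a member in the body. Of 38 sensors and adaptors, 3 did, and of 46 interferon-stimulated effectors, 1 did. None of 40 genes of interferon and NF-kappaB signalling held a member at an end or in the body, where 0.913% and 6.04% of all genes did. Among 37 cytokines and chemokines, 2 did. With lists of this size, 1 gene changes a share by more than 2 percentage points, and the interval of each of these 4 lists held the 6.04% of all genes.

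The individual sites were as follows. TRAF6, a ubiquitin ligase downstream of Toll-like receptors, had a member of 341 bp (chr11:36500331-36500671). NLRC5, a regulator of MHC class I genes, had one of 780 bp (chr16:57060887-57061666), 14.6 kb from any other list's peak. NLRP1, an inflammasome sensor, had one of 284 bp at a gene end (chr17:5584508-5584791), and MX1, an antiviral GTPase, had one of 381 bp in the body (chr21:41446655-41447035). In each of these 4 genes the other lists had peaks as well. The IGF2BP3 knockout counts there include the member, which by the rule no other list holds. A higher count is therefore partly fixed by naming genes that hold a member. The IGF2BP3 knockout list held 3 peaks in NLRP1, against 1 in the control list and 2 in each of the other knockout lists. In TRAF6, NLRC5 and MX1 it held 1 more than each other list, and that 1 is no more than the member itself. Whether these genes were more open in the IGF2BP3 knockout was not tested. CCL2, a chemokine that attracts monocytes, had a member of 756 bp (chr17:34254913-34255668) at its end and 0 peaks in the other lists, of which the nearest lay 54.4 kb away. CXCL12, a chemokine that retains blood progenitors in the marrow, had a member of 449 bp in the body (chr10:44376346-44376794), and the IGF2BP2 knockout had a separate peak in the gene.

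Among 30 matched genes of the IGF2BP family and its known mRNA targets, 2 had a member at an end, CD44 and HMGA1, and 7 had one in the body (23.3%, interval 11.8 to 40.9), against 0.913% and 6.04% of all protein-coding genes. The 7 genes with one in the body were CD44, HMGA1, KCNMA1 with 2 members, MAPK4, BTRC, IGF2BP1 and IGF2BP2. The genes of this list had a median length of 43.3 kb, against 24.1 kb for all protein-coding genes. Over all protein-coding genes the share with a member in the body rose with gene length, and it was 2.53% at 10 to 50 kb. Whether length bears on the share in this list was not tested. In the same 30 genes, regions of the IGF2BP1 knockout alone lay in the body of 3, of the IGF2BP2 knockout alone of 9 and of the control alone of 3. Over all 20037 protein-coding genes these numbers were 1729, 3038 and 743. HMGA1, an architectural chromatin protein, had a member of 922 bp (chr6:34237703-34238624) 0.418 kb from the nearest peak of another list. At IGF2BP1 on chromosome 17, the IGF2BP3 knockout list had 4 peaks in the gene, the member included, and each of the other lists 2. This member was 470 bp wide (chr17:49022373-49022842). At IGF2BP2 on chromosome 3, a member of 518 bp lay in the gene (chr3:185796485-185797002). The gene held 3 control peaks, 7 of the IGF2BP1 knockout, 5 of the IGF2BP2 knockout and, the member included, 7 of the IGF2BP3 knockout. The targeted gene itself, IGF2BP3 on chromosome 7, had no member within 100 kb. Its nearest member was the one at NPY, 814 kb away, and the gene held 1 peak of the IGF2BP3 knockout list against 3, 3 and 2 in the control, IGF2BP1 knockout and IGF2BP2 knockout lists. Peak positions show neither the edited sequence nor protein levels and do not check the knockout.

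Of 34 kidney developmental regulators, 3 had a member at a gene end (8.82%, lower limit 3.05%), against 0.913% of all protein-coding genes. OSR1, a zinc finger factor of early nephron progenitors, had one of 681 bp at its end (chr2:19358355-19359035), where each other list had its nearest peak 3.64 to 3.67 kb away. MEIS2, a homeobox cofactor of HOX proteins, had one of 633 bp that lay 0.216 kb from a peak of another list, and EYA1, a transcriptional cofactor of kidney and ear development, had one of 662 bp, 6.12 kb from the nearest IGF2BP2 knockout peak and 140 kb from the nearest control peak. Regions of the IGF2BP1 knockout alone lay at an end of 1 gene of this list, those of the IGF2BP2 knockout alone of 2 and those of the control alone of 1.

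Of 65 other developmental homeobox, T-box, GATA, FOX and SOX genes, FOXA2 and GATA4 had a member at an end (3.08%, interval 0.848 to 10.5). FOXA2, GATA4, HOXA3, HOXA10 and TBX5 had one in the body (7.69%, interval 3.33 to 16.8). Of all protein-coding genes, 0.913% had a member at an end and 6.04% had one in the body. TBX5, a T-box factor of heart and forelimb, held a member of 786 bp (chr12:114396029-114396814), 154 kb from the nearest peak of another list, and no other peak. None of 36 genes of the neuronal cytoskeleton and lineage and none of 16 housekeeping genes had a member in the body or at an end. The upper limits for the body were 9.64% and 19.4%, above the 6.04% of all genes. Of 25 markers of blood and leukaemia stem cells, RUNX1 held 2 members in the body, at 691 and 771 bp, and FLT3 held 1 of 966 bp, and no gene had one at an end. Zinc finger genes (ZNF symbols) had a member in the body in 10 of 517 cases (1.93%, interval 1.05 to 3.52). Their median length was 23.7 kb, and the share over all genes of 10 to 50 kb was 2.53%. Olfactory receptor genes had one in 2 of 392 cases (0.510%, interval 0.140 to 1.84). Their median length was 2.94 kb, and the share over all genes under 10 kb was 0.983%.

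Long genes held most of the members that lay in genes. Of 1515 pairs of a member and the protein-coding gene around it, 764 were in genes of 100 to 500 kb and 269 in genes of 500 kb or more. The share of genes with a member in the body was 0.983% below 10 kb, 2.53% at 10 to 50 kb and 6.73% at 50 to 100 kb. It was 20.2% at 100 to 500 kb, and 44.4% (140 of 315) at 500 kb or more. Other classes held by 1 list rose with gene length too. Among all regions in gene bodies, members made up 1.58% below 10 kb and 5.65% at 500 kb or more, so their share of the open regions also increased with length.

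**Figure D3:**
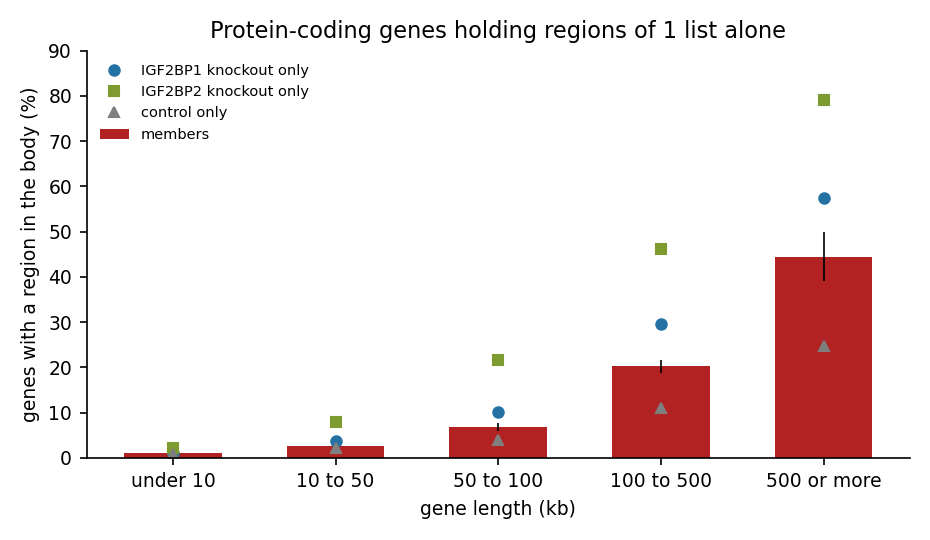
Share of protein-coding genes (%) with a region in the body, by gene length (kb). Bars are the members with Wilson 95% intervals, and points are the other 3 classes held by 1 list alone. Members lie in 0.983% of genes under 10 kb and in 44.4% of genes of 500 kb or more.

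Among 72 long adhesion and synaptic genes, 28 (38.9%, interval 28.5 to 50.4) held 79 members, against 44.4% of all genes of 500 kb or more. Regions of the IGF2BP1 knockout alone lay in 37 of the 72 genes, those of the IGF2BP2 knockout alone in 50 and those of the control alone in 15. The 10 protein-coding genes with the most members were PCDH9 with 8, CNTNAP2, TENM2, GPC5 and DPP6 with 7 each, and KLF12, IL1RAPL2, LRMDA, HPSE2 and CHRM3 with 6 each. PCDH9, a protocadherin, had 90 open regions in all, so its 8 members were a small part of them. DPP6, which encodes an auxiliary subunit of potassium channels, had 13 regions, of which 7 were members, 3 were in the IGF2BP1 knockout alone and none in the IGF2BP2 knockout or control alone. The peak counts that follow include the members, which by the rule no other list holds, in genes chosen for having the most members. A higher IGF2BP3 knockout count there is partly fixed by that choice. Counting 1 kb on either side, DPP6 held 2 control peaks, 6 of the IGF2BP1 knockout, 2 of the IGF2BP2 knockout and 10 of the IGF2BP3 knockout. TENM2, a teneurin of synaptic adhesion, had 22 regions, of which 7 were members, and its control, IGF2BP1 knockout, IGF2BP2 knockout and IGF2BP3 knockout lists held 6, 12, 13 and 18 peaks. Its members of 803 and 702 bp stood 245 and 220 kb from any other list's peak. IL1RAPL2, an interleukin receptor-like gene on chromosome X, had 6, 8, 14 and 20 peaks in the same order, and HPSE2, which encodes a heparanase-like protein, had 6, 8, 13 and 15. At CHRM3, a muscarinic acetylcholine receptor gene, and KLF12, a Krüppel-like factor gene, the IGF2BP3 knockout list stood at 19 and 26 peaks, no higher than the IGF2BP2 knockout list with 19 and 31.

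The members were spread unevenly over chromosomes 1 to 22 and X. Chromosome Y held 34 regions, of which 7 were members, and is left out of the comparison. Of the regions on chromosome 21, 12.4% were members (118 of 953, interval 10.4 to 14.6), on chromosome 13 9.93%, on chromosome X 9.06%, on chromosome 10 8.70% and on chromosome 11 7.43%. The lowest shares were 1.64% on chromosome 2 (88 of 5354, interval 1.34 to 2.02), 1.91% on chromosome 19 and 2.10% on chromosome 16. These intervals did not overlap with those of the 5 highest chromosomes, and neighbouring regions are not independent. The other classes had other orders. On chromosome 10, regions of the IGF2BP1 and IGF2BP2 knockouts alone made up 4.01% and 10.6%, and on chromosome 2 they made up 7.19% and 19.5%. Leaving out regions at gene ends kept the same extremes, with 13.5% on chromosome 21 and 1.95% on chromosome 2.

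**Figure D4:**
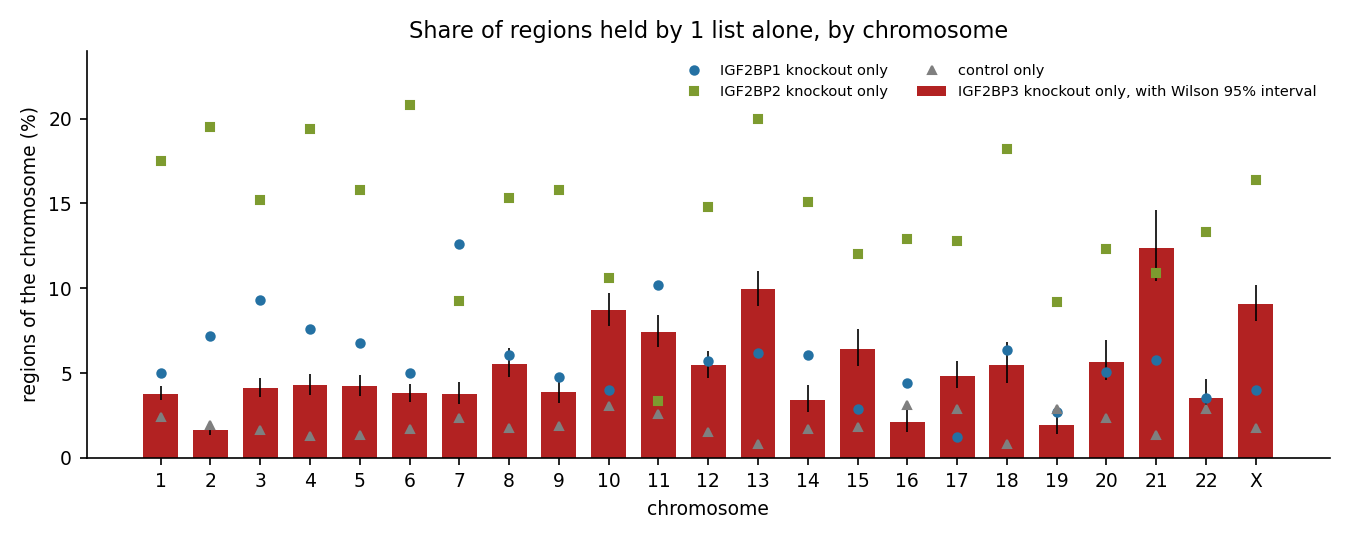
Share of the regions of chromosomes 1 to 22 and X (%) that are held by 1 list alone. Bars are the members with Wilson 95% intervals, and points are the other 3 classes. Members range from 1.64% of regions on chromosome 2 to 12.4% on chromosome 21.

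A measure that the rule did not use was the width of regions open in all 4 lists. For each of 29686 such regions, the log2 width in the IGF2BP3 knockout list was taken against the mean log2 width in the other 3 lists and centred on the median of all. The median per chromosome was 0.053 on chromosome 21, 0.046 on chromosome 10 and 0.032 on chromosome X, and -0.067 on chromosome 2, -0.070 on chromosome 19 and -0.088 on chromosome 16. Chromosome 13 departed from this order, with 9.93% members at a width difference of 0.016, and so did chromosome 17, with 4.84% at 0.041. Across 23 chromosomes, the share of members and this width difference had a Pearson r of 0.740 and a Spearman rho of 0.816. Both come from the same IGF2BP3 knockout libraries, and the correlation is a description over chromosomes. Between the share of members and the share of regions of the IGF2BP1 knockout alone, r was -0.0225. With the share of the IGF2BP2 knockout alone it was -0.167, and with that of the control alone -0.322. These values do not involve the width difference. Whether the shares of the other classes follow the widths in their own lists was not tested. Regions missing from the IGF2BP3 knockout list alone went the other way, with 9.41% of the regions on chromosome 2, 9.39% on chromosome 16 and 8.03% on chromosome 19, and 2.20% on chromosome 21. They are defined by the same peak calls as the members, so this contrast is a description and no separate support.

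**Figure D5:**
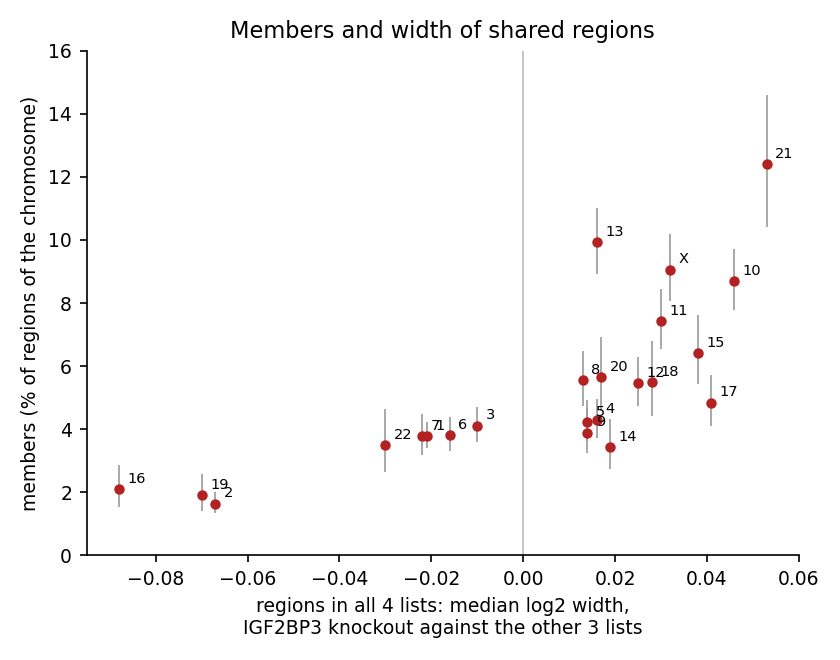
Members as a share of the regions of each chromosome (%, points with Wilson 95% intervals) against the median log2 width of regions in all 4 lists, IGF2BP3 knockout against the other 3 lists, for chromosomes 1 to 22 and X. Chromosomes 16, 19 and 2 lie lowest on both axes, and chromosome 21, at 12.4% and 0.053, lies highest on both.

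The same relation was present on a finer scale. In 547 windows of 5 Mb with at least 50 regions, the median share of members was 4.03%, 25 windows held 0 members and 12 windows reached 15%. Regions in all 4 lists had a median width difference of -0.045 (log2) in windows with under 2% members, -0.001 at 2 to 5%, 0.024 at 5 to 10% and 0.048 at 10% or more. The quartiles overlapped widely, from -0.238 to 0.093 in the lowest bin and from -0.109 to 0.198 in the highest. Over 516 windows r was 0.424, and with the number of protein-coding genes nearby r was -0.109 over 547 windows.

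Within chromosomes, members gathered in certain stretches, which were chosen after their values were seen. On chromosome 13, 269 of 312 members lay between 60 and 95 Mb, where they were 13.9% of regions (interval 12.4 to 15.5) against 3.57% on the rest of the chromosome. Regions of the IGF2BP2 knockout alone were also more frequent there (446 of 1939 regions against 184 of 1204), and those of the IGF2BP1 knockout alone were less frequent, at 5.05% against 7.97%. In that stretch 74.3% of members were over 100 kb from a protein-coding gene. On chromosome 7, members were 13.3% of regions in the 3 windows of 5 Mb up to 160 Mb and 2.30% elsewhere, while regions of the IGF2BP2 knockout alone were 5.49% and 9.79%. The width of regions in all 4 lists differed in the same direction there, at 0.039 against -0.035. On chromosome X, members were 12.2% of regions between 100 and 150 Mb and 6.44% elsewhere. There too, regions of the IGF2BP2 knockout alone were more frequent, at 20.1% against 13.4%. Those of the IGF2BP1 knockout alone were less frequent (45 of 1251 regions against 66 of 1507). On chromosome 21, members were 16.7% between 25 and 40 Mb and 9.14% elsewhere. Regions of the IGF2BP1 knockout alone were more frequent in that stretch too (7.14% against 4.75%), and those of the IGF2BP2 knockout alone less so (5.91% against 14.6%). The width difference was 0.055 against -0.013 for the stretch of chromosome 13, 0.058 against 0.017 for that of chromosome X and 0.055 against 0.051 for that of chromosome 21.

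At the scale of 50 kb, 213 members (6.08%) lay in 61 clusters of 3 or more, each at most 50 kb from the next. Regions of the IGF2BP2 knockout alone formed 500 clusters with 16.4% of their number, those of the IGF2BP1 knockout alone 50 with 3.64%, and those of the control alone 5 with 1.13%. The largest cluster of members had 7 within 121 kb around INSIG1, a regulator of sterol synthesis, at chr7:155220369-155341617, where the control and IGF2BP1 knockout lists had 3 peaks each, the IGF2BP2 knockout list 4 and the IGF2BP3 knockout list 9. The next had 6 members at chr13:67554344-67727346, 324 kb from PCDH9. Clusters of equal number were ranked by summed width, and the other 3 of the 5 leading clusters, with 5 members each, were also on chromosome 13. The one at chr13:72121443-72181050, 254 kb from DACH1, held 5 IGF2BP3 knockout peaks, 1 of the IGF2BP2 knockout and 0 of the control and the IGF2BP1 knockout. The IGF2BP3 knockout counts of these clusters include the members, which by the rule no other list holds.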

How the data were processed

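The authors deposited 1 peak list per group, made from 9 ATAC-seq libraries. Per the submitters' processing notes, fastp 0.24.1, BWA 0.7.17, MACS2 3.0.0, bedtools and the build GRCh38 were used. Their settings, the peak threshold and how libraries were combined are not given in the sources used here. Counts of regions held by 1 list depend on the length of each list, which differed between groups. Coordinates are those of the deposited peaks, counted from 1. Peaks were merged with Python 3.11.15 and pandas 2.3.3, and Wilson intervals were computed with scipy 1.17.1. Genes, promoters and microRNAs were RefSeq GRCh38.p14. The gene table gives no strand, so gene starts, as planned, were replaced by either end of a gene, and promoters used the strand of the promoter table. Sites were named by rule: the widest members, genes with most members, the leading clusters, listed genes and the targeted genes. Members, gene lists and motifs were chosen with earlier results of these data known. The merging step was tested on simulated data.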

Additional observations from a re-analysis of the deposited data

How the results depend on the processing

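No paired analysis was possible because the lists hold no values per library, and for the same reason no library could be left out. Counting peaks within 500 bp as shared moved the share of members at least 10 kb from other lists to 58.5%. Keeping the 39194 widest peaks of each list gave 4208 members, of which 2485 were members before, with a median width of 540 bp and 63.6% at least 10 kb away. Requiring a width of at least 500 bp of IGF2BP3 knockout peaks gave 1650 members with a median of 637 bp, 59.5% at least 10 kb away, 95 genes with a member at an end and 13 clusters. With a window of 5 kb, 11.3% of members and 464 genes met the gene-end rule, and with a distance of at least 1 kb, 93.9% of members stood apart. A cluster gap of 100 kb gave 132 clusters. Of the alternatives added after the data were seen, promoter-table starts gave 2.58%, ends of any annotated gene 11.7%, and leaving out chromosome 13 gave 44.6% of members in protein-coding genes and 40 clusters. The other 30 of 46 recomputed values stayed within 1.5 times for counts, or within the 95% interval of the value reported, and among these were the shares on chromosomes 13 and 21. With unknown depth, a member's absence from another list means only that no peak was called there.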
